A study of Ovis aries with 15 samples.

Results

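The interval before birth, from gestational day (GD) 124 to GD144, was examined in the liver of fetal sheep (Ovis aries). The 6 libraries whose titles give GD144 were set against the 5 whose titles give GD124, which together are 11 of the 15 libraries of the series. The 4 libraries of GD100 entered only the statistical fit, where they helped to estimate the spread. All libraries came from liver tissue and were made from poly(A) RNA for paired-end sequencing. The labels give the stage and the tissue and name no treatment, genotype, breed or sex for any group. The letters in the sample codes differ between the stages, and the labels do not say what these letters stand for. A difference in cohort, treatment or handling and an effect of stage therefore cannot be told apart. Whether each library stands for its own fetus is not said, so p-values rest on the spread between libraries, part of which may be technical.

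The fetal liver begins as a site of blood formation and, towards birth, becomes the organ that keeps blood glucose up, detoxifies ammonia, burns fat and makes bile. In the sheep fetus cortisol and thyroid hormone in the blood rise before delivery, and both are known to act on enzyme genes of the liver. Placental glucose stops at birth, so the newborn depends on glucose released from glycogen and made from amino acids and glycerol, and on fat as fuel.

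Depth ran from 24215612 to 38247295 estimated counts in the 11 libraries, and 18959 to 19582 genes were detected in each. Levels are in CPM, counts scaled to a library size that was adjusted by the trimmed mean of M values (TMM), and a count of 3, the floor of detection, equalled 0.0784 to 0.124 CPM. Floors cover counting error only. All 10 hepatocyte marker genes were present, and their summed level ran from 189570 to 219370 CPM at GD124 and from 145660 to 189020 CPM at GD144. The 14 markers of adrenal, kidney, gut and pancreas summed to 2.54 to 23.2 CPM over the 11 libraries, with 5 of the 14 at 0 in all. GD144 replicate 3 stood apart from its group, and GD124 replicate 5 had the highest erythroid sum of GD124. In GD144 replicate 3 the 35 erythroid genes summed to 1750.4 CPM, against 347 to 454 CPM in the other GD144 libraries and 3395 to 6883 CPM at GD124. The 49 mitosis genes of that library summed to 639.5 CPM, against 139 to 211 CPM in the others and 1076 to 2239 CPM at GD124. In whole tissue, fewer cells of a type and less RNA per cell cannot be told apart. Where a gene overlaps a neighbour in RefSeq its values are uncertain, because the sources used here do not say whether counting used the strand. Among the genes named below these are ABCB11, ABCG5, ABCG8, ACOT12, ACSL1, AFP, ARG1, ARMC12, ATF4, AXIN2, BAG3, BDH1, C8B, CA9, CD34, CHDH, COL1A1, CPT1A, DNAJA4, DUSP26, EGLN3, ELANE, F8, FDFT1, GLS2, GP9, GPC3, GRAP2, HK1, HNF4A, MEST, PCLAF, PEAR1, PECAM1, PGAM1, PLAGL1, PPARGC1A, PRKCQ, PYGL, RBM38, RBP4, RPS20, SHMT1, SLC10A1, SLC16A6, SLC2A1, SLC38A4, SLC6A9, SOCS2, SREBF2, STEAP3, TAP2, TYMS, UGP2 and UGT1A1.

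**Figure D1:**
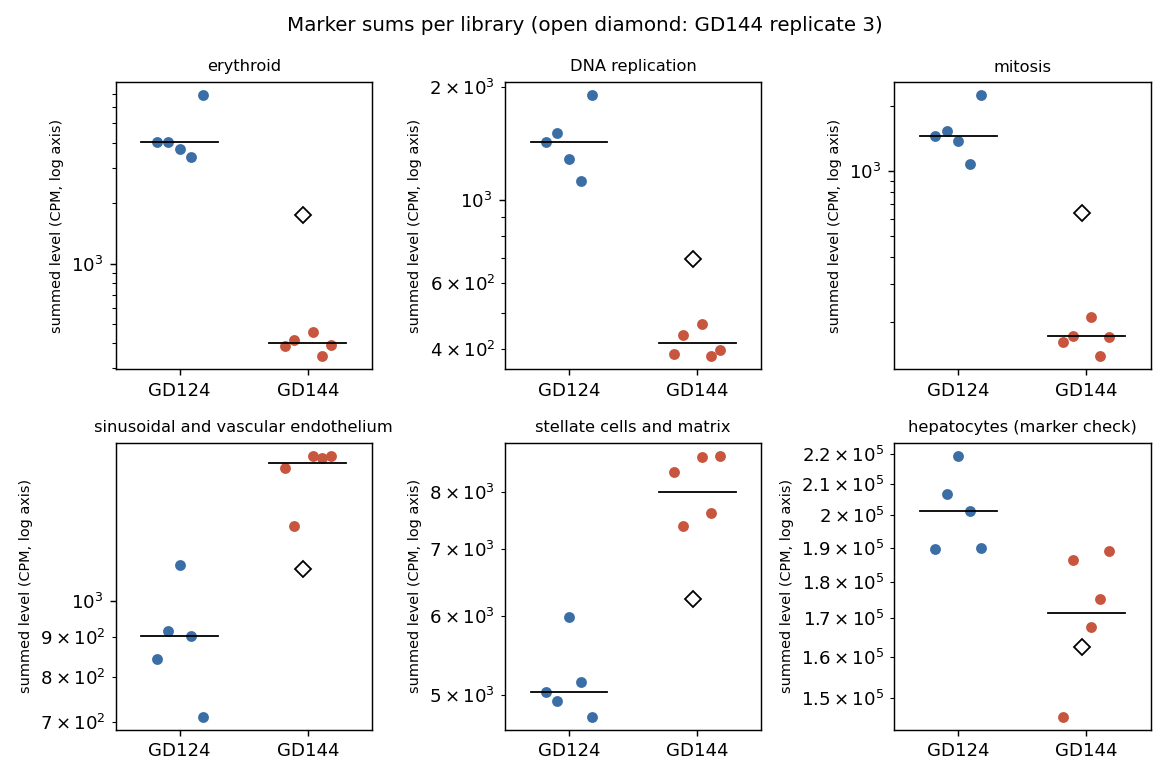
Summed level (CPM, log axis) of 6 marker lists in each of the 5 GD124 and 6 GD144 libraries, 1 point per library, with GD144 replicate 3 as an open diamond and the bar at the group median. The erythroid, DNA replication and mitosis sums of GD144 replicate 3 lie between those of the other GD144 libraries and those of GD124, while its endothelial and stellate sums are the lowest of GD144.

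In all, 16977 of 31411 genes were tested, and 4663 of them, 27.5%, differed between the stages at an edgeR quasi-likelihood adjusted p under 0.05. The 2046 higher calls were 12.1% of tested genes and the 2617 lower calls 15.4%, and these shares are the background for the counts of gene groups below. The median log2 fold change (GD144 over GD124) of all tested genes was -0.01. Large changes were mostly losses: 744 genes (4.38%) fell and 201 (1.18%) rose by at least 4-fold. The libraries of the stages did not overlap for 1326 higher (7.81%) and 1871 lower (11%) genes. Scaling by total counts alone moved the median gene to 0.07 and turned the split into 2520 higher (14.8%) and 2138 lower (12.6%) calls. Without GD144 replicate 3 there were 1936 higher (11.5%) and 2514 lower (15%) calls among 16804 tested genes, and 89.8% of the higher and 91.1% of the lower calls made with all libraries were made again. That library moved the size of losses more than that of rises. Of the 33 erythroid genes that fell, 25 moved by more than 1.5-fold when it was left out, and the median of these 33 went from -3.37 to -4.91. Of the 92 genes of DNA replication and mitosis that fell, 40 moved that far. In all the other gene lists together 0 of 378 higher calls and 12 of 166 lower calls moved by more than 1.5-fold. Rises and falls are not alike in this measure. Leaving out a library that stayed near GD124 can raise the GD144 mean of a rise only a little. For a fall the GD144 mean can drop without such a limit. The contrast therefore does not show that rises are insensitive to this library. The counts of each gene list below are followed by those obtained without this library.

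**Figure D2:**
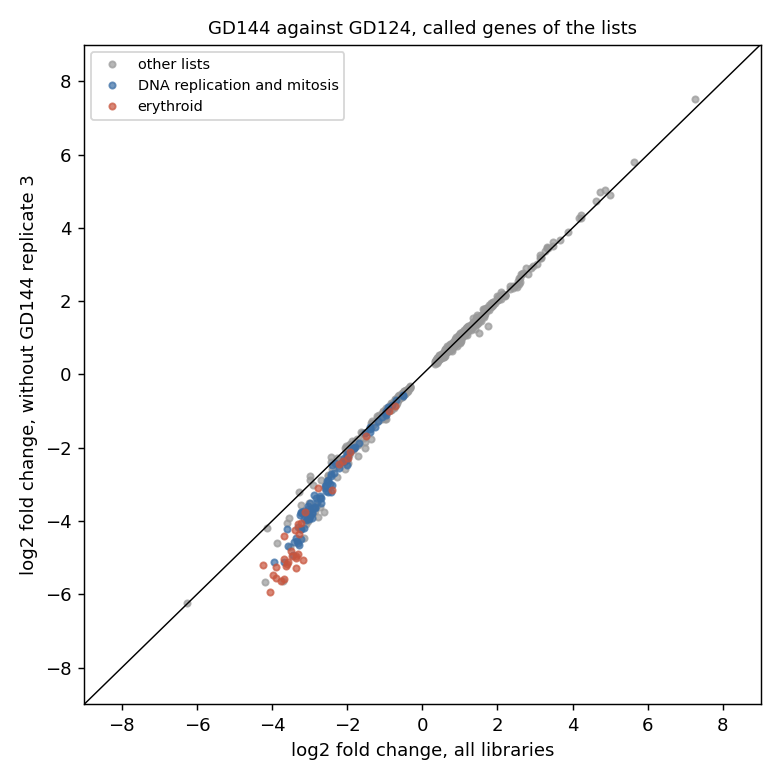
Log2 fold change of each gene in the gene lists that was called with all libraries, from all libraries (x axis) and without GD144 replicate 3 (y axis), with the line of equality. Most erythroid genes and most genes of DNA replication and mitosis lie below the line, with larger losses once the library is left out, while the genes that rose lie close to it. For a gene that rose, leaving out a library that stayed near GD124 can move the change only a little.

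Most genes that feed carbon into glucose rose. Of the genes of glucose release 12 of 16 rose and 1 fell, with a median log2 change of 1.04 (12 and 1 without GD144 replicate 3). G6PC1, the catalytic subunit of glucose-6-phosphatase, which frees glucose into blood, went from 106 ± 59.1 to 578 ± 155 CPM (mean ± SD, n = 5 and 6; log2 2.45 ± 0.42, edgeR adjusted p = 5.28e-04). Here and below the error of a log2 change is its standard error. PCK2, the mitochondrial form of phosphoenolpyruvate carboxykinase, went from 69.4 ± 7.185 to 253 ± 89.7 CPM, a change of log2 1.86 ± 0.22 with an edgeR adjusted p of 2.94e-05. In the glycogen list 8 of 13 rose and 1 fell, with a median of 0.76 (8 and 1 without GD144 replicate 3). Genes of both building and breaking glycogen were among those that rose. PYGL, liver glycogen phosphorylase, which breaks it down, went from 76.9 ± 15.6 to 244 ± 51.7 CPM (log2 1.67 ± 0.23). UGP2, which makes the UDP-glucose from which glycogen is built, went from 71.997 ± 11.4 to 197 ± 31.1 CPM (log2 1.46 ± 0.18), and PPP1R3B, which brings a phosphatase to glycogen, from 96.7 ± 37.8 to 301 ± 34.5 CPM (log2 1.64 ± 0.23). GYS2, liver glycogen synthase, had 229 ± 33.6 and 283 ± 75.7 CPM and did not pass the test (edgeR adjusted p = 0.426).

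The list of fructose, glycerol and sorbitol was split: 5 of 16 rose and 2 fell, with a median of 0.12 (4 and 3 without GD144 replicate 3), and 9 did not pass the test. GK, glycerol kinase, read 1.04, 0.972, 0.604, 0.587 and 0.384 CPM in the 5 GD124 libraries, and its lowest, median and highest GD144 values were 2.12, 14.7 and 51.3 CPM. Every GD144 library lay above every GD124 library (log2 4.61 ± 0.74, edgeR adjusted p = 4.35e-04). Without replicate 4, the highest, the change was log2 3.96. AQP7, a glycerol channel, read 7.52, 3.89, 7.82, 6.17 and 5.16 CPM at GD124 and 35.6, 68.02 and 75.7 CPM (lowest, median, highest) at GD144, with no overlap (log2 3.33 ± 0.28). SORD, sorbitol dehydrogenase, which yields fructose, went from 71.2 ± 16.2 to 186 ± 63.7 CPM (log2 1.39 ± 0.22).

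Genes of glycolysis were split. In that list 5 of 20 rose and 3 fell, with a median of 0.24 (5 and 3 without GD144 replicate 3). The share that fell, 15%, was near the background of 15.4%. PKLR, the liver pyruvate kinase, read 93.02, 118, 102, 109 and 159.6 CPM at GD124 and 16.3, 22.7 and 35.6 CPM (lowest, median, highest) at GD144. The stages did not overlap and the gene fell (log2 -2.21 ± 0.19, edgeR adjusted p = 2.07e-06). HK1, a hexokinase of most tissues, fell from 38.5 ± 9.99 to 13.2 ± 4.65 CPM (log2 -1.54 ± 0.27). SLC2A1, the glucose transporter of most fetal tissues, read 171.5, 129.5, 174, 149 and 294 CPM at GD124 and 13.5, 19.2 and 22.4 CPM at GD144 (log2 -3.29 ± 0.24). GD124 replicate 5, which had the highest erythroid sum, was also the highest for SLC2A1, and the part of red cell precursors was not tested. Enzymes of the middle of the pathway, which serve glucose breakdown and glucose synthesis alike, rose by less, among them PGAM1 (log2 1.07 ± 0.16), PGK1 (log2 0.77 ± 0.13) and GPI (log2 0.66 ± 0.12). PDK4, which switches off pyruvate dehydrogenase, rose from 28.5 ± 5.28 to 211 ± 119.75 CPM (log2 2.89 ± 0.32). In the list of the tricarboxylic acid cycle and pyruvate entry 10 of 30 rose and 0 fell, with a median of 0.35 (8 and 0 without GD144 replicate 3). At an unadjusted p under 0.05, 1 fell, and DESeq2 called 0 lower. The list also holds PDK4 and its related kinase genes, and PDK2 and PDK4 were among the rises. The count of rises was 16 without GD144 replicate 1 and 6 without GD124 replicate 5 or GD144 replicate 5.

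Transcripts for the use of amino acid carbon and nitrogen rose. Within amino acid breakdown 19 of 49 rose and 2 fell, with a median of 0.45 (16 and 3 without GD144 replicate 3). SDS, serine dehydratase, which turns serine into pyruvate, had the largest rise of the whole table under the naming rule. Its GD124 values were 2.97, 4.43, 2.15, 1.99 and 3.54 CPM, and its GD144 values ran from 10.9 CPM in replicate 1 and 13.6 CPM in replicate 2 through 61.3 and 61.6 CPM in replicates 3 and 5 to 322 and 422 CPM in replicates 6 and 4. The stages did not overlap although the GD144 libraries differed widely from each other (log2 5.62 ± 0.98, edgeR adjusted p = 8.05e-04). Without replicate 4 the change was log2 5.00. SDSL, a related enzyme gene, rose from 1.52 ± 0.801 to 28.4 ± 28.5 CPM (log2 4.21 ± 0.76) and was likewise highest in replicates 6 and 4. GLDC, which cleaves glycine, rose from 53.96 ± 14.001 to 229 ± 96.3 CPM (log2 2.09 ± 0.33), PRODH, the first enzyme of proline breakdown, from 1.61 ± 0.774 to 16.5 ± 9.57 CPM (log2 3.35 ± 0.40), and ACADSB, which acts on the isoleucine path, from 14.7 ± 4.67 to 84.1 ± 37.3 CPM (log2 2.51 ± 0.38). TDO2, which degrades tryptophan, had 612 ± 66.4 and 383 ± 130.4 CPM and did not pass the test (edgeR adjusted p = 0.23).

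While SDS and SDSL rose, PHGDH and PSPH, genes of serine synthesis, fell. PSAT1, the gene of the step between them, was tested but did not meet the naming rule. PSPH, which releases serine in the last step of its synthesis, read 79.3, 74.9, 69.6, 52.3 and 48.6 CPM at GD124 and 5.94, 9.07 and 15.9 CPM (lowest, median, highest) at GD144. The highest GD144 value, in replicate 3, was below the lowest GD124 value (log2 -2.71 ± 0.31, edgeR adjusted p = 2.45e-05). PHGDH, the first enzyme of the path, went from 84.8 ± 6.75 to 55.3 ± 12.05 CPM (log2 -0.62 ± 0.14). In the list of the amino acid starvation response, which holds both, 3 of 27 rose and 4 fell, with a median of 0.11 (3 and 3 without GD144 replicate 3), shares near the background. ASNS and ATF4, its best known members, did not pass the test (edgeR adjusted p = 0.497 and 0.754).

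Serine also enters one-carbon metabolism, the supply of methyl groups, where 12 of 25 rose and 2 fell, with a median of 0.44 (12 and 2 without GD144 replicate 3). GNMT, which uses up surplus methyl groups by methylating glycine, read 11.8, 8.79, 9.67, 9.1995 and 7.68 CPM at GD124 and 29.3, 119 and 317 CPM (lowest, median, highest) at GD144, with no overlap (log2 3.89 ± 0.49, edgeR adjusted p = 7.16e-05). SHMT1, which moves a carbon from serine to folate, rose from 88.6 ± 33.3 to 251 ± 33.3 CPM, and the choline and dimethylglycine dehydrogenase genes CHDH (log2 1.23 ± 0.23) and DMGDH (log2 1.23 ± 0.20) rose as well. PEMT, which makes phosphatidylcholine with methyl groups, fell from 147 ± 22.9 to 64.9 ± 16.4 CPM (log2 -1.18 ± 0.22). TYMS, which makes thymidylate for DNA and is also in the DNA replication list, changed by log2 -2.73 with all libraries and -3.37 without GD144 replicate 3.

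In the urea cycle and ammonia list 5 of 14 rose and 1 fell, with a median of 0.44 (4 and 1 without GD144 replicate 3). The fall was that of SLC38A5, a glutamine carrier described below. The enzymes that join and split argininosuccinate rose, ASS1 from 804 ± 126 to 2176 ± 585 CPM (log2 1.44 ± 0.21) and ASL from 293 ± 48.7 to 874 ± 179 CPM (log2 1.58 ± 0.21). NAGS, which makes the activator of the cycle, rose from 24.3 ± 5.83 to 68.4 ± 11.6 CPM (log2 1.49 ± 0.17), and GLS2, the liver glutaminase that frees ammonia, from 96.7 ± 17.2 to 271.5 ± 78.4 CPM (log2 1.49 ± 0.25). CPS1 passed the test narrowly, from 3511 ± 364 to 6055 ± 2015 CPM (log2 0.79 ± 0.27, edgeR adjusted p = 0.0376). Its adjusted p was 0.0568 to 0.0821 without any 1 of GD124 replicates 1, 2, 4 and 5 or GD144 replicates 3 to 6. ARG1, which releases urea, had 1047 ± 94.2 and 891 ± 225 CPM and did not pass (edgeR adjusted p = 0.587).

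Among amino acid transporters 4 of 26 rose and 6 fell, with a median of 0.12 (4 and 6 without GD144 replicate 3). Without GD124 replicate 2 the count of rises was 2. SLC7A5, which takes up large neutral amino acids, read 34.2, 36.4, 32.4, 30.5 and 60.9 CPM at GD124 and 2.84, 3.63 and 11.3 CPM (lowest, median, highest) at GD144. GD144 replicate 3 was the highest of its group at 11.3 CPM, and the stages did not overlap (log2 -3.03 ± 0.39, edgeR adjusted p = 8.45e-05). Falls of over 2 log2 units were seen for the glycine transporter SLC6A9 (log2 -2.50 ± 0.28) and for SLC6A13, a carrier of GABA and taurine (log2 -2.42 ± 0.41). SLC38A5, a glutamine carrier, is counted in the urea cycle and ammonia list and not in this one. It changed by log2 -4.19 with all libraries and -5.65 without GD144 replicate 3. The erythroid sums given above fell with these genes, and their part in the falls was not tested. SLC7A2 and SLC38A4, the arginine and neutral amino acid carriers of hepatocytes, did not pass the test (edgeR adjusted p = 0.741 and 0.069).

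Most genes of fatty acid oxidation were higher at GD144. Of the genes of fatty acid oxidation 16 of 25 rose and 1 fell, with a median of 0.56 (15 and 1 without GD144 replicate 3). CPT1A, which lets long-chain fatty acids into mitochondria, read 41.3, 41.9, 59.7, 46.8 and 49.4 CPM at GD124 and 107, 140.2 and 285 CPM (lowest, median, highest) at GD144, with no overlap (log2 1.71 ± 0.22, edgeR adjusted p = 5.27e-05). ACSL1, which activates long-chain fatty acids, read 89.1, 81.6, 71.4, 81.1 and 61.3 CPM at GD124 and 205, 572 and 1093 CPM at GD144 (log2 2.94 ± 0.36). For both genes GD144 replicate 4 was the highest library of all 11. ACADVL, the first dehydrogenase of the long-chain spiral, rose from 65.7 ± 11.1 to 177 ± 56.6 CPM (log2 1.43 ± 0.21) and ACOT12, an acetyl-CoA hydrolase, from 4.51 ± 1.17 to 39.6 ± 21.1 CPM (log2 3.13 ± 0.41). ACSS1, which activates acetate in mitochondria, fell from 19.98 ± 6.27 to 6.08 ± 2.16 CPM (log2 -1.71 ± 0.30).

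Among genes of ketone bodies 5 of 11 rose and 2 fell, with a median of 0.47 (5 and 2 without GD144 replicate 3). SLC16A6, a monocarboxylate carrier linked to ketone body export, read 17.98, 36.7, 25.7, 14.2 and 29.8 CPM at GD124 and 182, 247 and 395 CPM (lowest, median, highest) at GD144, with no overlap (log2 3.49 ± 0.31, edgeR adjusted p = 3.56e-06). BDH1, which makes the ketone body 3-hydroxybutyrate, was low and fell, from 2.36 ± 1.01 to 0.579 ± 0.199 CPM, a change of log2 -2.03 ± 0.47 with an edgeR adjusted p of 0.00446. Of the peroxisome genes 11 of 37 rose and 3 fell, with a median of 0.43 (10 and 2 without GD144 replicate 3). With total counts alone as the scaling these counts were 17 and 1. EHHADH, an enzyme of peroxisomal oxidation, rose from 165 ± 35.975 to 516 ± 195 CPM (log2 1.65 ± 0.29) and ACOX2, the oxidase of bile acid intermediates and branched fatty acids, from 58.9 ± 8.73 to 234 ± 42.955 CPM (log2 1.99 ± 0.21).

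**Figure D3:**
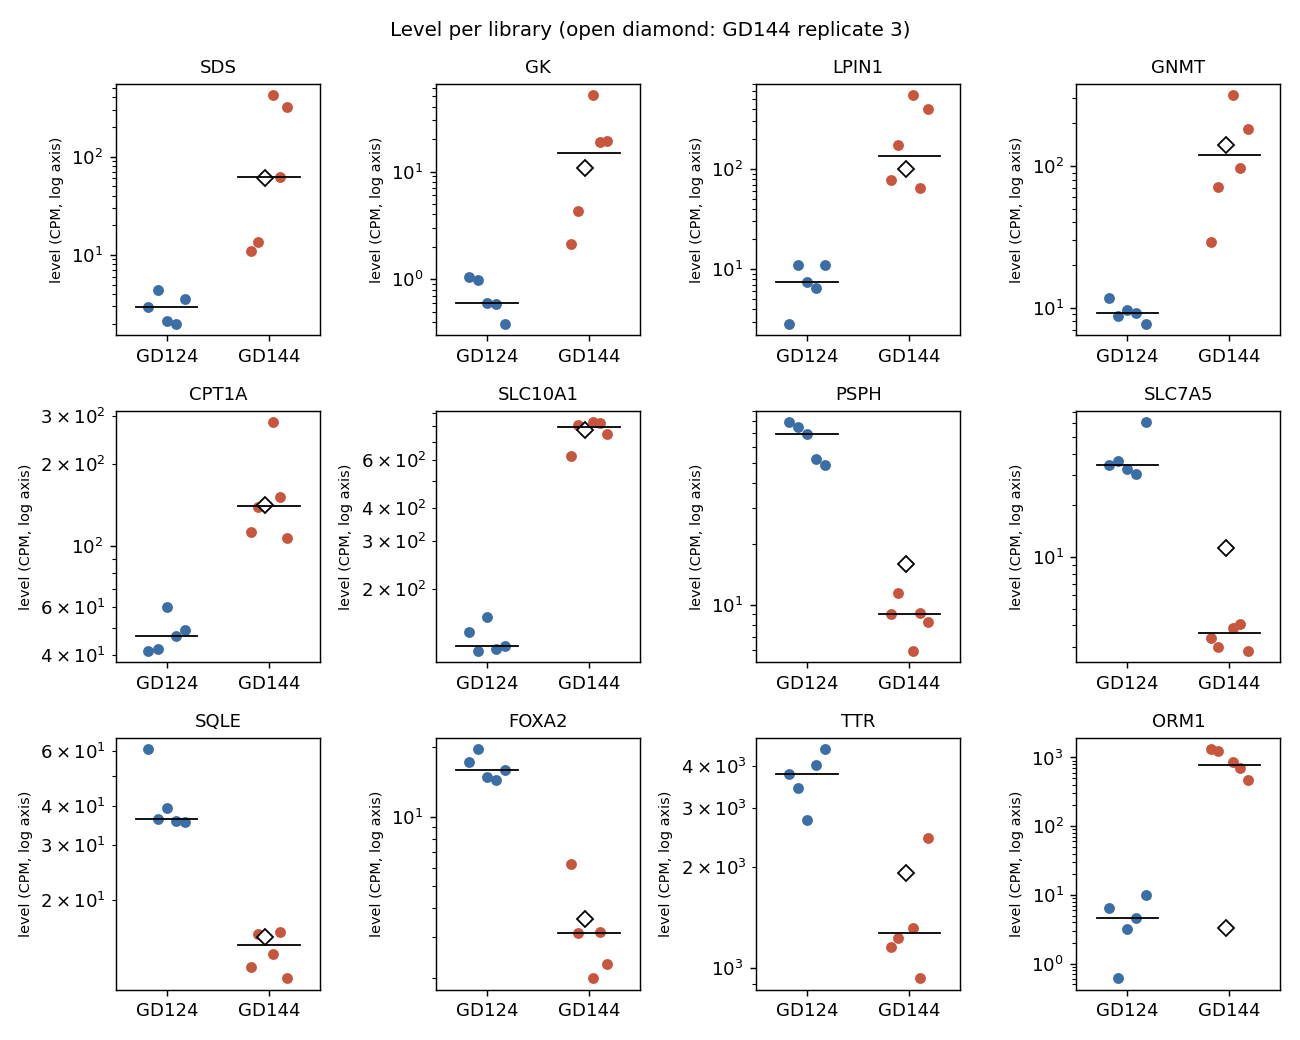
Level (CPM, log axis) of 12 genes named in the text in each of the 5 GD124 and 6 GD144 libraries, 1 point per library, with GD144 replicate 3 as an open diamond and the bar at the group median. In 11 of the 12 panels the stages do not overlap, which the rule that named these 11 genes required. Over all tested genes 7.81% were higher and 11% lower without overlap. In the panel of ORM1, named without that rule, GD144 replicate 3 lies at the level of GD124.

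The list of fatty acid and triglyceride synthesis did not move one way. It also holds genes of fat storage and of the breakdown of stored fat. In it 8 of 37 rose and 7 fell, with a median of 0.10 (8 and 5 without GD144 replicate 3). LPIN1, a phosphatidate phosphatase that also acts as a coactivator in fat oxidation, read 2.84, 11.1, 7.45, 6.49 and 10.9 CPM at GD124 and 64.1, 136 and 548 CPM (lowest, median, highest) at GD144, with no overlap (log2 4.87 ± 0.67, edgeR adjusted p = 1.51e-04). Its highest values, 548 and 399 CPM, were in GD144 replicates 4 and 6, the same 2 libraries as for SDS. PNPLA2, the lipase that starts the breakdown of stored fat, rose from 42.03 ± 12.3 to 93.01 ± 8.42 CPM (log2 1.15 ± 0.18). ACSL4, which prefers arachidonic acid, fell from 628 ± 62.6 to 116 ± 80.2 CPM, a change of log2 -2.44 ± 0.42 with an edgeR adjusted p of 6.15e-04. SCD, the stearoyl desaturase, had 14.1 ± 6.59 and 15.1 ± 5.23 CPM (edgeR adjusted p = 0.921).

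Genes of cholesterol synthesis tended to losses, as 1 of 26 rose and 9 fell, with a median of -0.39 (1 and 10 without GD144 replicate 3). Without GD124 replicate 1 these counts were 2 and 5. SQLE, squalene epoxidase, read 60.8, 36.4, 39.35, 35.8 and 35.6 CPM at GD124 and 11.25, 14.3 and 15.9 CPM (lowest, median, highest) at GD144, with no overlap (log2 -1.58 ± 0.26, edgeR adjusted p = 3.28e-04). FDFT1, squalene synthase, fell from 81.5 ± 14.7 to 46.9 ± 10.5 CPM (log2 -0.80 ± 0.19), and SREBF2, the transcription factor of this pathway, from 164 ± 19.98 to 92.8 ± 26.5 CPM (log2 -0.82 ± 0.17). INSIG2, which holds that factor back in the endoplasmic reticulum, was the member that rose, from 55.2 ± 10.6 to 98.7 ± 13.1 CPM (log2 0.84 ± 0.17). Sterol exporters rose: ABCG8, which with ABCG5 moves sterols into bile, read 27.3, 23.9, 17.7, 21.9 and 9.94 CPM at GD124 and 68.8, 86.8 and 115 CPM at GD144 (log2 2.13 ± 0.22, edgeR adjusted p = 1.03e-05), and ABCG5 (log2 1.89 ± 0.35) and ABCA1 (log2 1.30 ± 0.17), which loads high-density lipoprotein, rose with it. In the lipoprotein list, which holds these 3 genes, 10 of 29 rose and 1 fell (9 and 2 without GD144 replicate 3), with a median of 0.33. The major apolipoprotein genes APOA1 (edgeR adjusted p = 0.787) and APOB (0.548) did not pass the test.

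In bile acid and drug handling more genes rose than fell, and many did not pass the test. Of the bile acid genes 7 of 18 rose and 0 fell, with a median of 0.16 (7 and 0 without GD144 replicate 3; at an unadjusted p under 0.05, 1 fell, and DESeq2 called 0 lower). SLC10A1, which takes bile salts up from blood, read 138, 118, 157, 119.8 and 123 CPM at GD124 and 619.8, 793 and 828 CPM (lowest, median, highest) at GD144, with no overlap (log2 2.55 ± 0.35, edgeR adjusted p = 9.23e-05). AKR1D1, a steroid reductase of bile acid synthesis, rose from 194 ± 54.2 to 413 ± 62.2 CPM (log2 1.09 ± 0.27). The bile salt exporter ABCB11 and the conjugating enzyme BAAT did not pass the test (edgeR adjusted p = 0.381 and 0.545). For conjugation and other drug enzymes 11 of 38 rose and 2 fell, with a median of 0.34 (11 and 2 without GD144 replicate 3). XDH, xanthine oxidoreductase, which makes uric acid, read 4.64, 4.14, 3.26, 3.62 and 3.24 CPM at GD124 and 18.99, 95.3 and 308 CPM (lowest, median, highest) at GD144, with no overlap (log2 4.99 ± 0.62, edgeR adjusted p = 7.23e-05). The carboxylesterase gene CES3 went from 48.2 ± 12.3 to 256 ± 29.5 CPM (log2 2.41 ± 0.18), and UGT1A1, which conjugates bilirubin, from 37.9 ± 14.2 to 173 ± 48.3 CPM (log2 2.19 ± 0.28). Reads of UGT1A1 can also come from other genes of its cluster that share exons. GSTA1, a glutathione transferase, went the other way, from 195 ± 21.05 to 50.2 ± 39.5 CPM (log2 -1.96 ± 0.54, edgeR adjusted p = 0.0148). In the cytochrome P450 list 2 of 7 tested genes rose and 0 fell, with a median of 0.25 (2 and 1 without GD144 replicate 3). At an unadjusted p under 0.05, 1 fell, and DESeq2 called 0 lower. The 7 include CYB5A, cytochrome b5, which is not a P450. Many listed genes were not among the gene names counted. Those counted were 7 of 31 for cytochrome P450, 39 of 64 for conjugation and other drug enzymes and 19 of 25 for bile acids. CYP2E1, a cytochrome P450 that oxidises ethanol and acetone, read 2.43, 0.972, 0.974, 6.36 and 2.73 CPM at GD124 and 10.4, 40.6 and 134 CPM at GD144 (log2 4.23 ± 0.67, edgeR adjusted p = 4.35e-04). Without GD124 replicate 4, the highest of its group, the change was log2 4.83.

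Antioxidant genes were divided, as 7 of 33 rose and 11 fell, with a median of -0.08 (7 and 10 without GD144 replicate 3). Without GD124 replicate 5 the count of rises was 4. GPX1, which reduces peroxides with glutathione, read 517, 446, 368, 269.8 and 503 CPM at GD124 and 63.9, 83.3 and 231 CPM (lowest, median, highest) at GD144. The highest GD144 value, in replicate 3, lay under the lowest GD124 value, and the change was log2 -2.01 with and -2.42 without that library (edgeR adjusted p = 5.30e-04). PRDX2, a peroxiredoxin abundant in red cells, fell from 287 ± 47.1 to 87.3 ± 31.8 CPM (log2 -1.72 ± 0.28). GCLM, a subunit of the enzyme that starts glutathione synthesis, fell from 96.05 ± 16.1 to 45.6 ± 10.6 CPM (log2 -1.08 ± 0.22). PRDX6 rose from 52.8 ± 11.5 to 97.9 ± 19.1 CPM (log2 0.89 ± 0.16) and SELENOP, the selenium carrier of plasma, from 1659 ± 232 to 3123 ± 745 CPM (log2 0.91 ± 0.25). Erythroid sums fell together with GPX1 and PRDX2, and their part was not tested.

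In the iron and metal list 4 of 32 rose and 5 fell, with a median of 0.06 (4 and 5 without GD144 replicate 3), shares near the background. The counts were 7 and 3 without GD144 replicate 1, and 2 rose without any 1 of GD124 replicates 2, 4 and 5. TFRC, the transferrin receptor, which erythroblasts hold in abundance, fell from 295 ± 66.2 to 62.99 ± 27.4 CPM (log2 -2.23 ± 0.29), the ferrireductase STEAP3 from 123 ± 15.5 to 66.75 ± 11.55 CPM (log2 -0.88 ± 0.14) and the iron exporter SLC40A1 from 475 ± 44.3 to 299 ± 40.8 CPM (log2 -0.66 ± 0.16). HFE, which takes part in hepcidin control, rose from 15.5 ± 4.29 to 28.2 ± 2.64 CPM (log2 0.87 ± 0.23), and HAMP, hepcidin itself, had 4.52 ± 0.887 and 10.4 ± 5.28 CPM and did not pass (edgeR adjusted p = 0.0788), although it did without GD144 replicate 1 (0.0288) or 2 (0.0451). ERFE, the hormone by which erythroblasts lower hepcidin, fell from 18.8 ± 5.48 to 1.58 ± 0.896 CPM (log2 -3.56 ± 0.35).

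The list of glucocorticoid and related genes was among those with the highest share of rises. In it 18 of 24 rose and 1 fell, with a median of 1.27 (18 and 1 without GD144 replicate 3). Besides known targets it holds genes of hormone receptors and hormone activation. It shares members with the clock and immediate early lists, whose limits, given below, apply to those members too. The part of hormones in these rises was not tested. GADD45B, a stress sensor, rose from 11.7 ± 4.11 to 82.985 ± 32.3 CPM (log2 2.82 ± 0.31), and NFKBIA, the inhibitor of NF-kappa B, which glucocorticoid induces, from 9.97 ± 2.19 to 50.4 ± 13.2 CPM (log2 2.34 ± 0.22). The inflammation list as a whole did not follow: 3 of 24 rose and 0 fell, with a median of -0.10 (3 and 0 without GD144 replicate 3; at an unadjusted p under 0.05, 3 fell, and DESeq2 called 0 lower), and IL1B had 2.45 ± 0.605 and 1.97 ± 0.958 CPM (edgeR adjusted p = 0.608). DIO1, which activates thyroxine, read 279, 235, 173, 193 and 178 CPM at GD124 and 473, 609.99 and 881 CPM (lowest, median, highest) at GD144, with no overlap (log2 1.59 ± 0.25, edgeR adjusted p = 2.11e-04). In the list of thyroid hormone handling 3 of 16 rose and 2 fell, with a median of 0.08 (3 and 2 without GD144 replicate 3).

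For insulin and glucagon signalling 13 of 31 rose and 1 fell, with a median of 0.36 (12 and 1 without GD144 replicate 3). The receptor INSR (edgeR adjusted p = 0.349) and its substrates IRS1 (0.326) and IRS2 (0.152) did not pass the test, and IRS2 alone of the 3 did so without GD124 replicate 5 (0.0382). Among genes downstream of cyclic AMP, SIK1, a kinase induced by this signal, read 15.8, 10.98, 13.9, 12.5 and 18.7 CPM at GD124 and 46.2, 60.4 and 64.6 CPM (lowest, median, highest) at GD144, with no overlap (log2 1.998 ± 0.19, edgeR adjusted p = 4.68e-06). PPARGC1A, a coactivator of fasting genes, rose from 22.5 ± 4.99 to 45.3 ± 11.6 CPM (log2 1.01 ± 0.20), and TRIB3, an inhibitor of the kinase AKT, from 4.12 ± 0.944 to 18.4 ± 6.83 CPM (log2 2.16 ± 0.29). CRTC2, a coactivator of the same path, fell slightly, from 40.5 ± 4.81 to 29.03 ± 2.402 CPM (log2 -0.48 ± 0.11).

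More liver transcription factors rose than fell, and most did not pass the test. Of the liver transcription factors 12 of 33 rose and 3 fell, with a median of 0.34 (11 and 3 without GD144 replicate 3), and of the nuclear receptors 13 of 35 rose and 1 fell, with a median of 0.40 (12 and 1 without GD144 replicate 3). HNF4A, a master regulator of hepatocyte genes, rose from 201 ± 40.8 to 324 ± 44.5 CPM (log2 0.69 ± 0.16) and CEBPB from 40.4 ± 12.5 to 101 ± 24.015 CPM (log2 1.33 ± 0.22). FOXA2, a pioneer factor of the embryonic liver, went the other way, with 17.3, 19.6, 14.8, 14.4 and 16.005 CPM at GD124 and 1.99, 3.14 and 6.25 CPM (lowest, median, highest) at GD144 (log2 -2.27 ± 0.26, edgeR adjusted p = 2.12e-05). CUX2 also fell, from 52.5 ± 7.64 to 17.999 ± 10.05 CPM (log2 -1.54 ± 0.34). NR1I2, the pregnane X receptor that senses drugs and bile acids, rose from 18.7 ± 5.802 to 40.97 ± 10.1 CPM (log2 1.13 ± 0.23), and RORA, an orphan receptor of the clock, from 20.6 ± 2.65 to 52.3 ± 11.9 CPM (log2 1.35 ± 0.15). Of the circadian clock genes 9 of 23 rose and 3 fell (9 and 3 without GD144 replicate 3), with a median of 0.16. CRY2, a repressor of the clock, read 19.8, 18.9, 17.1, 18.1 and 17.03 CPM at GD124 and 61.3, 66.8 and 80.3 CPM at GD144 (log2 1.93 ± 0.10, edgeR adjusted p = 1.10e-08). The labels used here give no time of day, so a difference in the hour of sampling and the stage cannot be told apart for these genes.

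Immediate early genes, which answer a stimulus within minutes, also moved: 13 of 34 rose and 1 fell, with a median of 0.72 (13 and 1 without GD144 replicate 3). EGR1 read 3.35, 4.68, 13.4, 4.502 and 5.55 CPM at GD124 and 16.8, 198, 33.9, 23.5, 55.9 and 92.9 CPM in GD144 replicates 1 to 6 (log2 3.48 ± 0.65, edgeR adjusted p = 0.00141). GD144 replicate 2 was the highest, and the groups did not overlap. Without it the change was log2 2.82. FOS, with 19.5 ± 8.34 and 30.2 ± 27.5 CPM, did not pass (edgeR adjusted p = 0.408). Such genes also respond to how tissue is taken, and the labels used here give nothing on that step, so its part was not tested. In the hypoxia list 6 of 28 rose and 6 fell, with a median of -0.04 (6 and 5 without GD144 replicate 3). The oxygen sensor gene EGLN3 rose from 12.04 ± 2.696 to 60.9 ± 14.3 CPM (log2 2.34 ± 0.20) and HIF3A, a hypoxia-inducible factor subunit that glucocorticoid also induces, from 77.9 ± 42.7 to 244.5 ± 76.4 CPM (log2 1.65 ± 0.35), while VEGFA (edgeR adjusted p = 0.0651) and CA9 (0.313) did not pass. VEGFA did so without GD124 replicate 4 (0.0409) or GD144 replicate 4 (0.0496).

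Most genes of the acute phase list rose, and most plasma protein genes did not pass the test. In the acute phase list 13 of 22 rose and 2 fell, with a median of 0.77 (14 and 2 without GD144 replicate 3). This list holds receptors and signalling genes beside secreted proteins. The secreted members HP, SAA1, SAA2, SAA3, SAA4, SERPINA3 and APCS were not among the gene names counted. LBP, which binds bacterial lipopolysaccharide, read 61.5, 34.7, 14.4, 11.5 and 46.5 CPM at GD124 and 215, 310.5 and 372 CPM (lowest, median, highest) at GD144, with no overlap (log2 3.16 ± 0.52, edgeR adjusted p = 5.17e-04). IL1RN, the interleukin-1 receptor antagonist, rose from 14.2 ± 2.13 to 125 ± 93.4 CPM (log2 3.13 ± 0.50), and CRP, the pentraxin that tags bacteria and dying cells, from 343 ± 199 to 1824 ± 664 CPM (log2 2.41 ± 0.43). ORM1, an acute phase glycoprotein that binds drugs and steroids, read 6.41, 0.612, 3.22, 4.63 and 10.1 CPM at GD124 and 1310.5, 1228, 3.29, 874, 697 and 469 CPM in GD144 replicates 1 to 6. GD144 replicate 3 thus lay at the level of GD124, while the other 5 libraries were above every GD124 library, and the change was log2 7.26 ± 1.24 with and 7.52 without it (edgeR adjusted p = 7.10e-04).

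Among plasma protein and coagulation genes 10 of 47 rose and 4 fell, with a median of 0.17 (8 and 4 without GD144 replicate 3). A fit of the 11 libraries alone gave 17 and 8, and 2 fell without GD124 replicate 2 or GD144 replicate 4. FGA, a fibrinogen chain, had 5466 ± 640.02 and 5956 ± 747 CPM (edgeR adjusted p = 0.726). The clotting factor genes F8 (log2 1.47 ± 0.18) and F5 (log2 1.16 ± 0.25) rose. TTR, which carries thyroxine and retinol binding protein, read 3785, 3448, 2759, 4032 and 4480.3 CPM at GD124 and 934, 1272 and 2443 CPM (lowest, median, highest) at GD144, with no overlap (log2 -1.30 ± 0.29, edgeR adjusted p = 0.00292). FETUB, fetuin-B, a protease inhibitor of plasma, read 4036, 5280.2, 5012, 5169 and 5563 CPM at GD124 and 858, 1373 and 1446 CPM at GD144 (log2 -1.95 ± 0.19, edgeR adjusted p = 4.68e-06). Of the complement genes 6 of 33 rose and 1 fell, with a median of 0.27 (7 and 1 without GD144 replicate 3). The rises included C8B (log2 1.87 ± 0.33) and C5 (log2 1.09 ± 0.31), both of the membrane attack path, and the fit of the 11 libraries alone gave 10 rises. CD55, which protects blood cells from complement, fell from 18.7 ± 8.18 to 4.38 ± 2.02 CPM (log2 -2.08 ± 0.30).

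Part of the growth genes of the fetus fell. In the list of imprinted and oncofetal genes 1 of 32 rose and 12 fell, with a median of -0.39 (1 and 12 without GD144 replicate 3). PLAGL1, an imprinted zinc finger gene that regulates other imprinted genes, read 102, 117, 119, 103 and 160.3 CPM at GD124 and 5.35, 6.597 and 8.52 CPM (lowest, median, highest) at GD144, with no overlap (log2 -4.13 ± 0.20, edgeR adjusted p = 2.10e-09). MEST, an imprinted gene tied to fetal growth, fell from 431 ± 99.4 to 119 ± 33.035 CPM (log2 -1.86 ± 0.23), HMGA1, a chromatin protein of growing tissue, from 80.5 ± 18.6 to 17.9 ± 6.57 CPM (log2 -2.17 ± 0.25), and DLK1, a marker of fetal hepatoblasts, from 406 ± 48 to 183 ± 54.97 CPM (log2 -1.15 ± 0.19). GRB10, an imprinted brake on insulin signalling, was the 1 member that rose, from 38.4 ± 4.83 to 60.4 ± 8.11 CPM (log2 0.65 ± 0.14). GPC3, a growth-restraining surface proteoglycan, had 1927 ± 292 and 1935 ± 266 CPM (edgeR adjusted p = 0.992).

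In the growth hormone and IGF axis 7 of 23 rose and 1 fell, with a median of 0.29 (7 and 1 without GD144 replicate 3). The receptor GHR rose from 101 ± 11.9 to 176 ± 14.9 CPM (log2 0.80 ± 0.17), and SOCS2, which growth hormone induces and which dampens its receptor, from 33.1 ± 6.68 to 92.8 ± 16.7 CPM (log2 1.49 ± 0.17). The growth factors themselves did not pass: IGF1 had 196 ± 57.6 and 256 ± 34.4 CPM (edgeR adjusted p = 0.185) and IGF2 had 8091 ± 1142 and 9873 ± 2447 CPM (edgeR adjusted p = 0.365). Of liver-made hormones 5 of 29 rose and 4 fell, with a median of -0.08 (5 and 4 without GD144 replicate 3), and INHBA, a subunit of activin A, rose from 6.04 ± 1.87 to 37.5 ± 14.6 CPM (log2 2.63 ± 0.27). Among inhibitors of the cell cycle and early cyclins 5 of 25 rose and 10 fell, with a median of -0.32 (4 and 10 without GD144 replicate 3). CDKN1A, the p21 inhibitor, rose from 15.3 ± 6.81 to 50.8 ± 22.04 CPM (log2 1.73 ± 0.35) and CCND1, cyclin D1, fell from 118 ± 35.5 to 56.975 ± 12.9 CPM (log2 -1.05 ± 0.25).

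Genes of the liver's supporting cells rose as well. In the endothelial list 18 of 29 rose and 1 fell, with a median of 0.75 (20 and 1 without GD144 replicate 3). Its summed level ran from 711 to 1114.5 CPM at GD124 and from 1099.7 CPM, in replicate 3, to 1535 CPM at GD144. PECAM1, an adhesion molecule of all endothelium, read 18.2, 18.01, 34.4, 17.9 and 12.3 CPM at GD124 and 41.5, 51.4 and 66.3 CPM (lowest, median, highest) at GD144 (log2 1.38 ± 0.35, edgeR adjusted p = 0.00826). FLT1, a receptor for vascular growth factor, rose from 7.61 ± 1.97 to 20.9 ± 4.18 CPM (log2 1.46 ± 0.28), DLL4, a Notch ligand of arterial endothelium, from 4.15 ± 1.03 to 11.3 ± 3.67 CPM (log2 1.45 ± 0.27), and STAB2, a scavenger receptor of sinusoids, from 112 ± 24.1 to 187 ± 27.3 CPM (log2 0.75 ± 0.18). CD34, present on vessels and on blood progenitors, was the member that fell, with 30.5, 39.3, 33.5, 35.5 and 64.7 CPM at GD124 and 6.49, 9.75 and 13.2 CPM at GD144 (log2 -2.07 ± 0.26, edgeR adjusted p = 4.50e-05).

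Of the stellate cell and matrix genes 21 of 47 rose and 0 fell, with a median of 0.52 (24 and 0 without GD144 replicate 3; at an unadjusted p under 0.05, 2 fell, and DESeq2 called 0 lower). RGS5, a marker of pericytes, read 4.64, 5.58, 3.42, 26.6 and 2.09 CPM at GD124 and 27.3, 42.9 and 92.4 CPM (lowest, median, highest) at GD144, the lowest of which lay just above the GD124 replicate 4 value of 26.6 CPM (log2 2.68 ± 0.64, edgeR adjusted p = 0.00664). Without that library the change was log2 3.78. The matrix genes POSTN (log2 1.43 ± 0.29) and FBLN5 (log2 1.24 ± 0.17) rose, and so did NGFR, a receptor of stellate cells (log2 1.07 ± 0.28). The fibrillar collagens COL1A1 (edgeR adjusted p = 0.641) and COL3A1 (0.163) and the contractile gene ACTA2 (0.622) did not pass. Of the Kupffer cell and macrophage genes 5 of 23 rose and 1 fell, with a median of 0.36 (4 and 1 without GD144 replicate 3), among them the mannose receptor gene MRC1 (log2 1.56 ± 0.41). Bile duct genes moved little, as 2 of 20 rose and 0 fell, with a median of 0.08 (2 and 0 without GD144 replicate 3; at an unadjusted p under 0.05, 0 fell, and DESeq2 called 0 lower), and the duct keratin KRT19 had 8.92 ± 1.56 and 9.11 ± 2.73 CPM (edgeR adjusted p = 0.954). Of the periportal hepatocyte genes 12 of 19 rose and 0 fell, with a median of 0.85 (10 and 0 without GD144 replicate 3; at an unadjusted p under 0.05, 0 fell, and DESeq2 called 0 lower), and of the pericentral genes 6 of 20 rose and 1 fell, with a median of 0.33 (6 and 1 without GD144 replicate 3). AXIN2, a target of the Wnt signal of the central vein, and GLUL, the glutamine synthetase of the cells around it, did not pass the test (edgeR adjusted p = 0.198 and 0.685).

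Platelet and progenitor lists mixed losses with rises. In the megakaryocyte and platelet list 4 of 19 rose and 12 fell, with a median of -1.84 (4 and 12 without GD144 replicate 3). GP9, a platelet surface gene, read 5.43, 6.05, 3.53, 7.11 and 8.45 CPM at GD124 and 0, 0.1802 and 1.17 CPM (lowest, median, highest) at GD144, with log2 -3.86 with all libraries and -4.60 without replicate 3 (edgeR adjusted p = 7.73e-04). GP1BA, whose product is the partner of GP9 in the platelet receptor complex, went the other way in all 6 libraries, with 37.5, 27.3, 54.1, 26.7 and 36.4 CPM at GD124 and 109, 148 and 181 CPM at GD144 (log2 1.98 ± 0.23, edgeR adjusted p = 2.56e-05). The other 3 that rose, VWF, CLEC1B and PEAR1, are also known from endothelium. For blood stem cells and progenitors 3 of 17 rose and 7 fell, with a median of -0.43 (3 and 7 without GD144 replicate 3), and KIT, the receptor for stem cell factor, fell from 4.09 ± 0.625 to 0.849 ± 0.467 CPM (log2 -2.25 ± 0.33). OSM, oncostatin M, a cytokine made by blood cells that drives hepatocyte maturation in the fetus, read 12.99, 9.94, 10.2, 10.6 and 11.1 CPM at GD124 and 0.0321, 0.0852 and 0.277 CPM (lowest, median, highest) at GD144. Its lowest 3 GD144 values were under the 3-count floor of their libraries, and its change of log2 -6.36 ± 0.47 therefore depends on how low counts are treated (edgeR adjusted p = 8.18e-07).

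Vitamin, lysosome and defence genes changed in part. Of the genes for vitamins and retinoids 6 of 31 rose and 6 fell, with a median near 0 (5 and 6 without GD144 replicate 3). TTPA, which loads vitamin E for export from the liver, read 71.7, 67.3, 70.6, 92.4 and 58.4 CPM at GD124 and 163, 193 and 281 CPM (lowest, median, highest) at GD144, and no library of one stage reached the other (log2 1.52 ± 0.22, edgeR adjusted p = 1.31e-04). CUBN, a receptor that takes up vitamin B12 carriers, fell from 24.2 ± 11.4 to 3.06 ± 2.02 CPM (log2 -2.98 ± 0.54). RBP4, which carries retinol in plasma with TTR, had 2471 ± 549 and 2627 ± 381 CPM (edgeR adjusted p = 0.843). In the list of autophagy and the lysosome 11 of 62 rose and 5 fell, with a median of 0.11 (11 and 5 without GD144 replicate 3), and 3 fell without any 1 of GD124 replicates 1, 2 and 5 or GD144 replicates 2, 4 and 6. GUSB, a lysosomal glucuronidase, rose from 72.8 ± 17.2 to 170.2 ± 39.2 CPM (log2 1.23 ± 0.21), and LIPA, the lysosomal lipase of cholesteryl esters, fell from 211 ± 25.7 to 112 ± 29.8 CPM (log2 -0.91 ± 0.25). BNIP3L, a receptor that clears mitochondria from maturing red cells, fell from 166 ± 30.2 to 98.9 ± 13.9 CPM (log2 -0.74 ± 0.16) together with the erythroid sums, whose part was not tested. Of the heat shock genes 1 of 27 rose and 4 fell, with a median of 0.01 (1 and 4 without GD144 replicate 3). The counts were 3 and 3 without GD144 replicate 1, and 2 rose without GD124 replicate 3 or GD144 replicate 2. BAG3, a partner of the heat shock protein HSP70, rose from 31.8 ± 6.71 to 112 ± 32.1 CPM (log2 1.82 ± 0.21), and DNAJA4, a co-chaperone, changed by log2 -2.80 with all libraries and -3.56 without GD144 replicate 3.

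Of the antigen presentation genes 6 of 16 rose and 0 fell, with a median of 0.45 (6 and 0 without GD144 replicate 3; at an unadjusted p under 0.05, 0 fell, and DESeq2 called 0 lower). FCGRT, which saves albumin and antibody from breakdown in cells, rose from 128 ± 19.4 to 239 ± 49.5 CPM (log2 0.90 ± 0.20), and TAP2, a peptide transporter, from 14.8 ± 1.597 to 25.5 ± 6.2997 CPM (log2 0.78 ± 0.23). Of the genes induced by interferon 1 of 24 rose and 0 fell, with a median of 0.18 (1 and 0 without GD144 replicate 3; at an unadjusted p under 0.05, 0 fell, and DESeq2 called 0 lower). ISG15 and MX1, common marks of an interferon response, did not pass the test (edgeR adjusted p = 0.851 and 0.891). Lymphocyte genes were low, with 0 higher and 1 lower of 19 and a median of 0.16 (0 and 0 without GD144 replicate 3; at an unadjusted p under 0.05, 0 rose, and DESeq2 called 0 higher). Of the granulocyte genes 6 of 14 fell and 0 rose, with a median of -1.71 (0 and 5 without GD144 replicate 3; at an unadjusted p under 0.05, 0 rose, and DESeq2 called 0 higher). The count of falls was 3 without any 1 of GD124 replicates 2 and 5 or GD144 replicates 2 and 6. ELANE, neutrophil elastase, fell from 3.83 ± 1.91 to 0.976 ± 0.664 CPM (log2 -1.96 ± 0.45).

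Several large systems of the cell had small median changes. Of the genes for folding and secretion in the endoplasmic reticulum 3 of 50 rose and 3 fell, with a median of 0.11 (3 and 2 without GD144 replicate 3). The count of rises was 8 without GD144 replicate 1 and 10 with total counts alone as the scaling, and 1 fell without GD144 replicate 4. Of the proteasome genes 3 of 43 rose and 1 fell, with a median of 0.11 (3 and 1 without GD144 replicate 3). Without GD144 replicate 1 the counts were 5 and 0, and in a fit of the 11 libraries alone 6 and 2. HSPA5, the main chaperone of the reticulum, had 594 ± 117 and 793 ± 205 CPM (edgeR adjusted p = 0.205). Of the cytosolic ribosomal protein genes 0 of 75 rose and 8 fell, with a median of -0.20 (0 and 7 without GD144 replicate 3; at an unadjusted p under 0.05, 0 rose, and DESeq2 called 0 higher). The falls were small, as in RPS20 (log2 -0.53 ± 0.11), and their count ran from 2 to 13 when single libraries were left out. Of the mitochondrial ribosomal protein genes 10 of 74 rose and 1 fell, with a median of 0.11 (6 and 1 without GD144 replicate 3), and the count of rises ran from 5 to 17 when single libraries were left out. Of the nuclear genes of the respiratory chain 6 of 60 rose and 2 fell, with a median of 0.18 (4 and 2 without GD144 replicate 3). The list held 81 genes, of which 60 were among the gene names counted. Of complexes III and IV only UQCRH and COX5A were tested, so the counts say little about these complexes. Without GD144 replicate 1, which had the lowest summed level of this list of all 11 libraries (3323.5 CPM, against 3527 to 5046.5 CPM), 16 rose. The count was 3 without GD124 replicate 2 or 5 or GD144 replicate 5 or 6. Mitochondrial carriers moved more, as 12 of 44 rose and 7 fell (13 and 7 without GD144 replicate 3), with a median of 0.26. SLC25A4, an ATP and ADP exchanger known chiefly from muscle, read 18.9, 13.2, 15.6, 14.3 and 11.9 CPM at GD124 and 87.6, 184 and 284 CPM (lowest, median, highest) at GD144, with no overlap (log2 3.66 ± 0.34, edgeR adjusted p = 4.68e-06). SLC25A37, which brings iron into mitochondria for haem and is also in the erythroid list, changed by log2 -3.38 with all libraries and -4.24 without GD144 replicate 3.

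**Figure D4:**
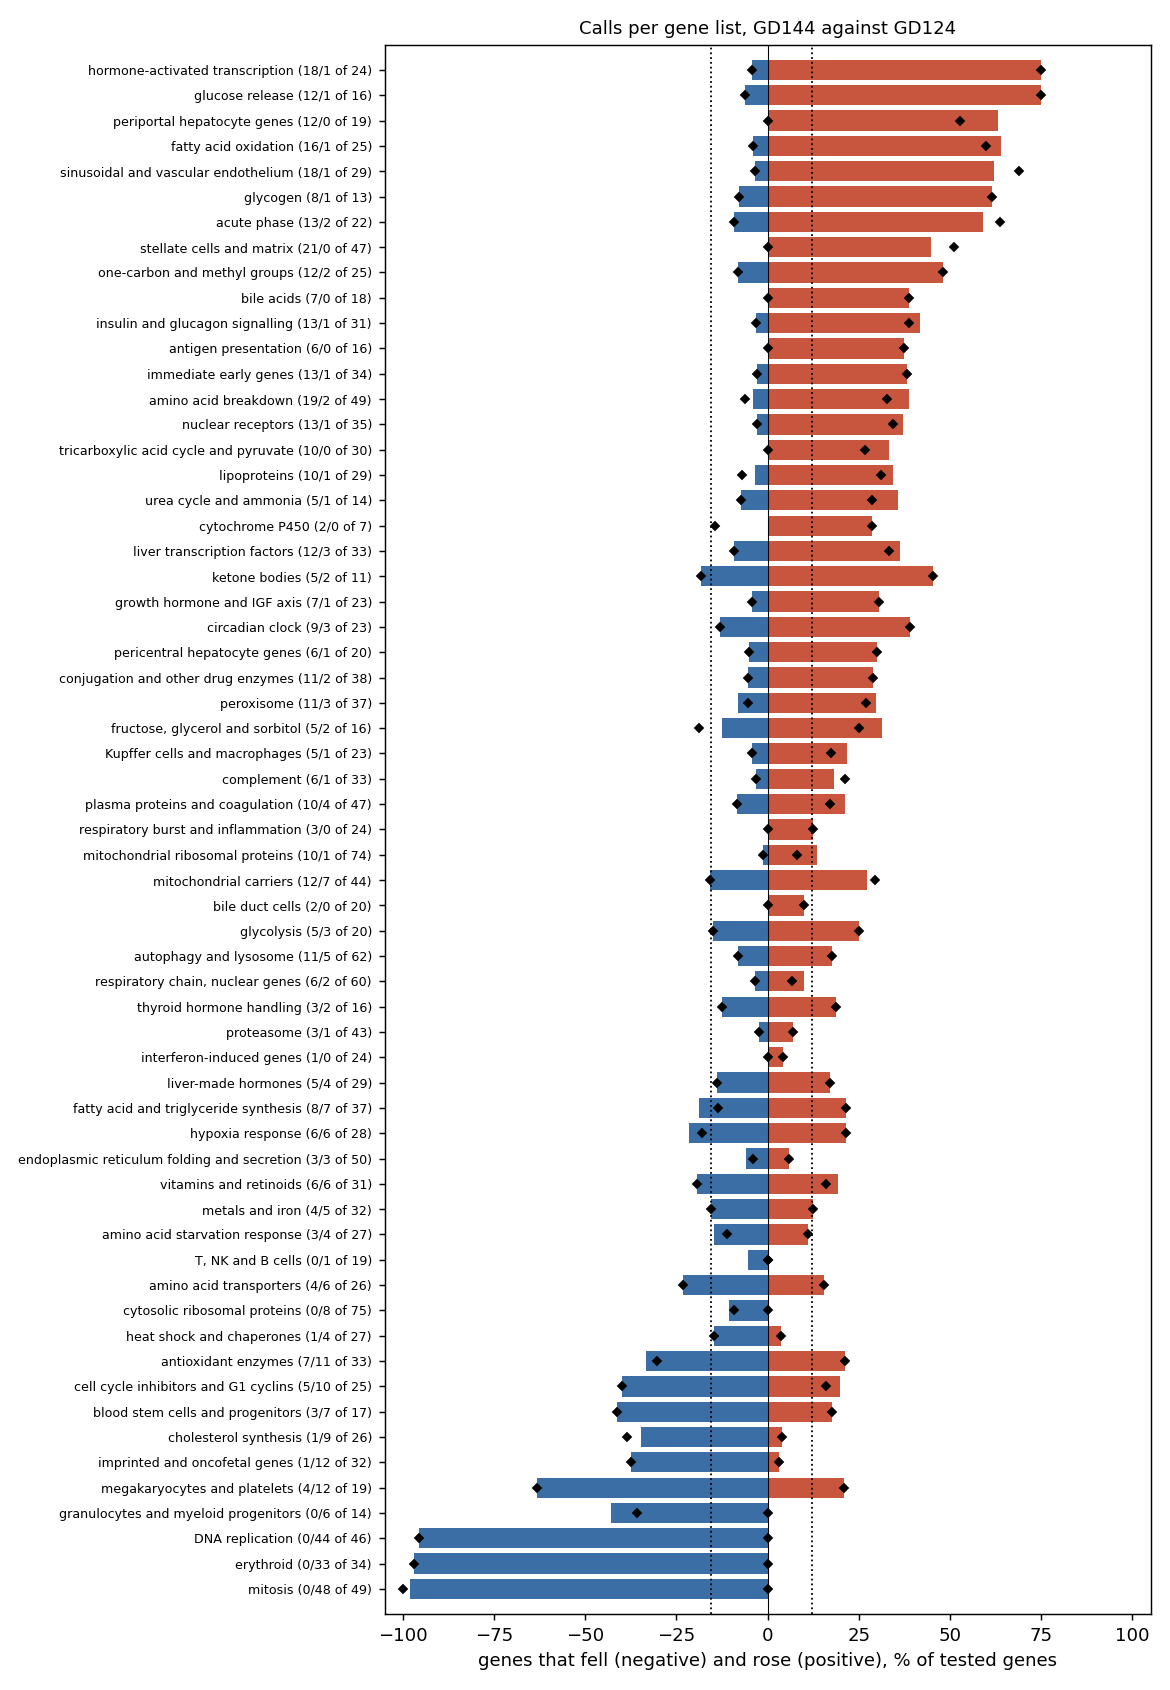
Share of tested genes of 61 gene lists that rose (right, positive) and fell (left, negative) at GD144 against GD124, in percent, with the numbers of rises, falls and tested genes beside each list. The dotted lines mark the background of 12.1% higher and 15.4% lower over all 16977 tested genes, and the diamonds give the counts without GD144 replicate 3 as a share of the same tested genes.

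Outside the erythroid, DNA replication and mitosis lists a rule took the largest changes among genes with at least 10 CPM in the higher stage, no overlap between the stages and a call also without GD144 replicate 3, which 849 higher and 924 lower genes met. Of the 15 largest rises 8 were SDS, XDH, LPIN1, GK, CYP2E1, SDSL, GNMT and SLC25A4, described above, and ZBTB16, a transcription factor gene that glucocorticoid induces, went from 3.83 ± 1.17 to 69.4 ± 18.4 CPM (log2 4.17 ± 0.28). The other 6 were ARMC12, CES4A, TBATA, TMEM37, ABCA10 and GUCA2B. CES4A, a carboxylesterase, read 9.26, 3.06, 10.005, 11.1 and 9.77 CPM at GD124 and 87.6, 102 and 326 CPM (lowest, median, highest) at GD144 (log2 4.21 ± 0.56, edgeR adjusted p = 1.08e-04). ABCA10, a member of the ABCA lipid transporter family, went from 9.07 ± 5.37 to 137 ± 33.8 CPM (log2 3.91 ± 0.40). GUCA2B, the gene of uroguanylin, a peptide hormone known from the gut, went from 1.16 ± 0.616 to 17.2 ± 6.54 CPM (log2 3.88 ± 0.48). ARMC12, TBATA and TMEM37 changed by log2 5.60, 4.00 and 3.94.

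Of the 15 largest falls 3 were AFP, PLAGL1 and OSM. TOX3, a chromatin factor gene, fell from 16.2 ± 2.23 to 0.835 ± 0.666 CPM (log2 -4.29 ± 0.46). Its change was log2 -4.25 without GD144 replicate 3. Another 10 of these falls, SLC38A5, ICAM5, ACHE, RBM38, GRAP2, TMCC2, PRKCQ, PCLAF, ANKLE1 and DUSP26, were larger without that library. Their log2 changes ran from -4.19 to -3.65 with all libraries and from -5.90 to -4.20 without it. ACHE, acetylcholinesterase, also sits on red cells, and PCLAF is a replication gene. The erythroid and cell cycle sums of GD144 replicate 3 were the highest of its group, and their part in these falls was not tested.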

How the data were processed

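Poly(A) RNA of fetal sheep liver was sequenced in 15 libraries, of which 5 are titled GD124 and 6 GD144. The authors deposited expected counts per gene, estimated reads with no scaling. DRAGEN is named in the submitters' processing notes; version, build, annotation and strandedness are not given in the sources read. Of the values 6.549% were fractional and all were rounded. Of 31411 gene names 28863 matched a RefSeq symbol (assembly ARS-UI_Ramb_v3.0), which served to mark overlapping genes. Low genes were removed with filterByExpr, which left 16977 genes for edgeR 4.0.16 (quasi-likelihood, R 4.3.3) with TMM factors. All 15 libraries entered 1 fit with a term per stage, and p-values were adjusted by Benjamini-Hochberg with a threshold of 0.05. The common coefficient of variation between libraries was 34%. DESeq2 1.42.0 was an alternative, and the test was checked on simulated data. Replicates of a stage differed by far more than sampling noise (lowest chi-square per degree of freedom 59.62).

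The gene lists and the comparison were chosen with earlier results of these data known, so lists are described by counts beside the share over all genes, with no test of the list. Named genes are the first 3 tested genes of a list, whatever they show, or up to 4 of the largest rises and falls per list (15 over all genes outside the erythroid and cell cycle lists) among genes called with and without GD144 replicate 3, with at least 10 CPM and no overlap of the stages. Some genes are not reported here.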

Additional observations from a re-analysis of the deposited data

Results flagged for a closer look

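Within each stage, the highest and the lowest library were compared with the rest by Dixon's gap test for the named genes and 6 marker sums. Of 398 groups of values 60 had a library that far from the others, and chance gives about 1 in 20. GD144 replicate 3 accounted for 19 of them.

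GD124 replicate 1 was the highest of its stage, in CPM, for C8B 210.2, CES3 70.02, CHDH 53.6, FDFT1 107, INHBA 9.29 and SQLE 60.8. GD124 replicate 2 was the lowest of its stage, in CPM, for CES4A 3.06. GD124 replicate 3 was the highest of its stage, in CPM, for EGR1 13.4, KRT19 11.65 and PECAM1 34.4. GD124 replicate 4 was the highest of its stage, in CPM, for PNPLA2 63.3, RBP4 3433 and RGS5 26.6. GD124 replicate 5 was the highest of its stage, in CPM, for ACHE 46.7, CD34 64.7, DNAJA4 40.3, GRAP2 30.9, ICAM5 20.9, IRS2 63.5, RBM38 165 and SLC25A37 567. Further such values of GD124 replicate 5, in CPM, were SLC2A1 294, SLC6A9 33.3, SLC7A5 60.9, TFRC 414, TMCC2 366 and the erythroid list 6883. GD124 replicate 5 was the lowest of its stage, in CPM, for BAG3 20.2 and GPI 49.7. GD144 replicate 1 was the highest of its stage, in CPM, for FOXA2 6.25. GD144 replicate 1 was the lowest of its stage, in CPM, for GPI 69.9. GD144 replicate 2 was the highest of its stage, in CPM, for FOS 84.5 and NR1I2 60.4. GD144 replicate 3 was the highest of its stage, in CPM, for ACHE 7.12, ANKLE1 17.3, DNAJA4 9.96, GCLM 65.98, GPX1 231, GRAP2 3.24, ICAM5 1.96 and PCLAF 7.67. Further such values of GD144 replicate 3, in CPM, were PRKCQ 6.13, RBM38 24.7, SLC25A37 102, SLC38A5 3.37, SLC6A9 6.82, SLC7A5 11.3, TMCC2 53.8 and TYMS 14.05. Further such values of GD144 replicate 3, in CPM, were the erythroid list 1750.4, the DNA replication list 696 and the mitosis list 639.5. GD144 replicate 4 was the highest of its stage, in CPM, for CPT1A 285, GK 51.3, MRC1 60.9, PDK4 446 and TMEM37 62.9. GD144 replicate 4 was the lowest of its stage, in CPM, for FETUB 858. GD144 replicate 5 was the highest of its stage, in CPM, for PRODH 34.96. GD144 replicate 6 was the highest of its stage, in CPM, for CYP2E1 134.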

How the results depend on the processing

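The 19 alternatives covered scaling, filters, DESeq2, the 11 libraries alone, a replicate term and leaving out each library. In each of them the counts of changed, higher and lower genes were within 1.5 times those reported. With DESeq2 2450 genes were higher and 2781 lower, and in the fit of the 11 libraries alone 2519 and 2743. Leaving out single libraries gave 3724 to 4489 changed genes, 1576 to 2145 higher and 2116 to 2525 lower. Of 159 named genes that passed the test, 158 did so in every alternative that gave an adjusted p, and CPS1 did not. Many of these genes were named for large changes without overlap, so this share was largely fixed by the naming rule. Over all tested genes fewer calls were made again. With the replicate block these were 65.9% of the higher and 72.5% of the lower calls, and without GD124 replicate 5 they were 75.2% and 80.1%. DESeq2 gave ACHE no adjusted p. Direction changed 21 times, only in named genes that did not pass the test. Their log2 changes when single libraries were left out ran from -0.014 to 0.87 for FOS, -0.047 to 0.087 for GPC3, -0.56 to 0.045 for ISG15, -0.093 to 0.14 for KRT19, -0.17 to 0.25 for MX1 and -0.12 to 0.34 for SCD. Other settings gave GPC3 -0.0024 with the filter of 1 CPM in at least 4 libraries, GPC3 -0.037 with the replicate block and KRT19 -0.11 with the replicate block. The causes were not tested.

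The replicate numbers of the stages showed no sign of pairing the samples. With the stage means taken off, the 5 same-numbered pairs correlated at -0.155 to -0.001 and the other pairs at -0.171 to 0.181. These values do not settle whether same-numbered libraries share a batch. With a replicate block 1372 genes were higher and 1934 lower, and CPS1 had an adjusted p of 0.128. The block gave 11 higher genes of amino acid breakdown, 6 of the tricarboxylic acid cycle, 7 of the nuclear receptors and 4 of the antioxidant enzymes.

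Depth limits genes near a count of 3. On simulated data with these library sizes and the common spread for every gene, 4.5% of 1.5-fold, 29.9% of 2-fold and 93.9% of 4-fold changes were found, with 6.6% false calls. The simulation had far fewer changed genes than the data and no library like GD144 replicate 3. These rates therefore need not hold for the real libraries.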
